A study of Mus musculus with 6 samples.

Results

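The double knockdown of Dnmt3a and Dnmt3b was compared directly with the knockdown of Dnmt3a alone, to see where adding the short hairpin RNA (shRNA) against Dnmt3b went with lower or higher DNA methylation. The members are the autosomal cytosines with a methylation level in both libraries, matched by chromosome, position and strand: 486320 of the 733073 autosomal cytosines with a level in any of the 6 libraries of the series. The study profiled E14 mouse embryonic stem cells by reduced representation bisulfite sequencing (RRBS), in which DNA is cut at CCGG by MspI so that CpG-rich sequence is read. Methylated and hydroxymethylated cytosines withstand bisulfite and cannot be told apart in these data. The compared libraries came from cells with an shRNA against Dnmt3a and from cells with shRNAs against Dnmt3a and Dnmt3b. Libraries with an shRNA against Dnmt3b, Tet1 and Tet2, or Dnmt1, or with a control shRNA, serve below only to set level classes or to show levels beside the comparison. Each group is 1 library, so no difference below has a replicate error or a p-value. Each ± below is an SD taken across the 19 autosomes, a measure of spread along the genome. In the smallest groups by distance it is taken across only those autosomes that hold such cytosines, down to 12 for a group of 35 cytosines. RNA and protein were not measured, so neither the identity of the cells nor the depletion of either enzyme was tested, and a smaller depletion of Dnmt3a in the double knockdown cannot be told apart from an effect of the Dnmt3b shRNA.

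DNMT3A and DNMT3B place methyl groups on CpG sites that carry none, and both are made in embryonic stem cells, where DNMT1 then copies the marks at replication. They overlap in their targets but differ in sequence taste: DNMT3A prefers a CpG followed by a pyrimidine (C or T), and DNMT3B one followed by a purine, G above all. CpG islands, short CpG-dense stretches at many promoters, are normally kept free of methylation, and the promoters of many germline genes are an exception, being methylated and silent outside germ cells.

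Sequence helps to see what was read. Promoters of RefSeq (250 bases before to 50 bases after a gene's start, build GRCm38.p6) were placed on the files' positions (build mm9) by the order, spacing and 5-base context of the listed cytosines, not by coordinates. The bases before the start are printed for 4 promoters with at least 8 listed cytosines, those with the largest gain and those with the largest fall in the double knockdown, with the CpGs read in both libraries in capitals. Topaz1 (chr9:122746949-122747198, plus strand), a gene of germ cells, and Asz1 (chr6:18109062-18109311, minus strand), which acts in the piRNA pathway that silences transposons in germ cells, had the largest gains. The transcript 4930563M20Rik (chr8:116801413-116801662, minus strand) and Zfp629 (chr7:127614434-127614683, minus strand), a zinc finger gene, had the largest falls. Coordinates in this paragraph are of GRCm38.p6; all others are of mm9.
Topaz1: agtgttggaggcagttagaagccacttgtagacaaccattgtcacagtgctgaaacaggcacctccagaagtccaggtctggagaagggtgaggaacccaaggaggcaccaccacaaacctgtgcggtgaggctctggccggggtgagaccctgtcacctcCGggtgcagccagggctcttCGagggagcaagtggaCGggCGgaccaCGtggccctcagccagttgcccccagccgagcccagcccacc
Asz1: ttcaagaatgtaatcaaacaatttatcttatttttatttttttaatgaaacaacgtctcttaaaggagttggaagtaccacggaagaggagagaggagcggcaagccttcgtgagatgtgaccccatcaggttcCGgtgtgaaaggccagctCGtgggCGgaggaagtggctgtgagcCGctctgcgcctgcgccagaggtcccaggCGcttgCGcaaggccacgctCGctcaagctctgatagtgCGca
4930563M20Rik: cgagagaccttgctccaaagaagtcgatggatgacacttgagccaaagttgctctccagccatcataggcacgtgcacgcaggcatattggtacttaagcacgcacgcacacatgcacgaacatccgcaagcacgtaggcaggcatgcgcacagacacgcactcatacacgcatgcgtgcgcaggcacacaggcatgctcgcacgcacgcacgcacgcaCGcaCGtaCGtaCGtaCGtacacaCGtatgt
Zfp629: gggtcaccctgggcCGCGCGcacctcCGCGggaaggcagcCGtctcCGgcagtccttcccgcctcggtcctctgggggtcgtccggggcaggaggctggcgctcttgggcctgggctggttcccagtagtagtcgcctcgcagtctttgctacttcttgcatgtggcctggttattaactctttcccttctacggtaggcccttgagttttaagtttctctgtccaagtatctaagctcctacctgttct
The Asz1 and Topaz1 stretches hold CpGs spaced along unlike sequence, whereas the CpGs read at 4930563M20Rik lie in a simple repeat of alternating purines and pyrimidines. At Zfp629 the CpGs read before the start sit at its far end, in runs of adjoining CpGs followed by CpGs standing alone.

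Over all members the double knockdown was more methylated than the Dnmt3a knockdown. The mean level was 26.1% ± 1.7 in the Dnmt3a knockdown and 27.4% ± 1.7 in the double knockdown, a difference of 1.25 ± 0.11 percentage points. The double was higher on 19 of 19 autosomes, from 0.956 points on chromosome 19 to 1.40 points on chromosome 6. Of the members, 33.2% were higher in the double, 21.5% lower and 45.3% at the same level in both libraries, 214713 of them at 0% in both. Fully methylated cytosines made up 0.894% of the members in the Dnmt3a knockdown and 1.48% in the double, and those above 80% made up 15.3% and 17.5%. The order holds for shared cytosines only. Over each library's own autosomal cytosines the Dnmt3a knockdown read 28.5% and the double 28.0%, since the 82687 cytosines listed in the Dnmt3a library and not in the double averaged 42.2%, and the 55463 with the opposite listing averaged 33.0%. Read depth per cytosine is unknown, because the files give levels without counts.

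The difference depended on how methylated a cytosine was. To keep either compared library from choosing its own class, cytosines were sorted on the average of the Dnmt3b library and the Tet1 and Tet2 library. By this average 280347 lay below 20% (low), 114825 above 80% (high) and 69006 between (intermediate), and 22142 lacked a level in one of the libraries used. Intermediate cytosines read 37.8% ± 1.0 in the Dnmt3a knockdown and 41.8% ± 1.3 in the double, a difference of 3.96 ± 0.45 points. High cytosines read 80.9% ± 0.9 and 83.5% ± 0.8, a difference of 2.55 ± 0.17 points. Low cytosines read 0.531% and 0.592%, a difference of 0.061 ± 0.021 points, and mitochondrial DNA differed by 0.060 points, whose part in it was not tested. In each class the double was higher on 19 of 19 autosomes. For comparison, the same intermediate cytosines read 53.0% in the control, 54.0% in the Dnmt3b, 58.0% in the Tet1 and Tet2 and 8.51% in the Dnmt1 library. The double knockdown thus lay between the Dnmt3a knockdown and the control, Dnmt3b and Tet1 and Tet2 libraries.

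In steps of 10 points the difference rose to a peak and fell again. It was 1.67 ± 0.49 points at cytosines of 20 to 30%, 5.16 ± 0.79 points at 60 to 70%, and 1.97 ± 0.16 points at 90 to 100%. As a share of the Dnmt3a level the double stood at 108% at 0 to 10%, 116% at 10 to 20%, 117% at 20 to 30% and at 30 to 40%, 111% at 60 to 70% and 102% at 90 to 100%. None of the 10 steps had a lower mean in the double, and the double was higher on all 19 autosomes in each except the lowest, where it was higher on 18.

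**Figure D1:**
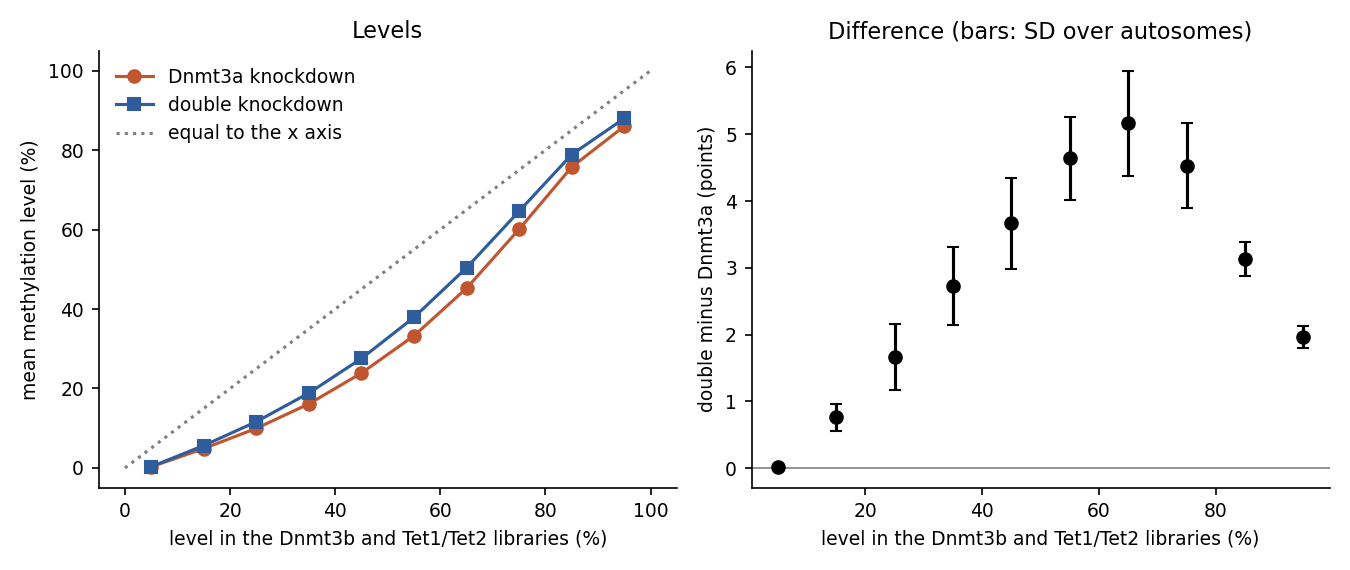
Left, the mean methylation level (%) in the Dnmt3a knockdown (circles) and the double knockdown (squares) against the level in the Dnmt3b library and the Tet1 and Tet2 library, in steps of 10 points; right, the double minus the Dnmt3a knockdown in percentage points, with bars for the SD over the 19 autosomes. The curve of the double lies above that of Dnmt3a, and the difference peaks at 5.16 points at 60 to 70%.

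Among intermediate cytosines the difference also grew with distance from unmethylated CpG clusters. Distance was measured to the nearest of 17030 clusters below 5% in the class libraries (at least 5 cytosines, each at most 100 bp from the next; median 11 cytosines over 132 bp). Intermediate cytosines within 2000 bp of such a cluster read 25.6% in the Dnmt3a knockdown and 26.2% in the double, a difference of 0.61 ± 0.59 points that was above 0 on 15 of 19 autosomes. Those more than 50000 bp away read 42.2% and 47.4%, a difference of 5.23 ± 0.55 points on 19 of 19 autosomes. The far cytosines thus exceeded the near ones by 4.62 ± 0.81 points, on 19 of 19 autosomes. The closest group, within 500 bp, read 16.9% and 17.0%, a difference of 0.15 ± 0.85 points, higher on 9 autosomes.

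Near cytosines were also less methylated to begin with, so the distances were compared at matched level. At 20 to 40% in the class libraries the difference went from 0.077 ± 0.717 points within 500 bp and 0.16 ± 1.12 points from there to 2000 bp, then to 1.44 ± 0.67 points up to 10000 bp, 2.50 ± 0.68 points up to 50000 bp and 3.43 ± 0.70 points beyond. At 40 to 60% it went from 0.67 ± 2.31 points within 500 bp to 5.94 ± 0.86 points beyond 50000 bp. At 60 to 80% it went from -0.54 ± 4.42 points, over 126 cytosines, to 5.58 ± 0.72 points. The Dnmt3a level still rose with distance inside these groups, from 10.8% to 13.3% at 20 to 40%, from 25.5% to 29.5% at 40 to 60% and from 44.4% to 56.9% at 60 to 80%, so the matching is not complete. High cytosines did not follow the same course, with 1.89 ± 1.5 points between 500 and 2000 bp, 2.79 ± 0.26 points between 10000 and 50000 bp and 2.43 ± 0.19 points beyond. Only 44 cytosines above 80% lay within 500 bp, and they read 72.3% in the Dnmt3a knockdown and 69.6% in the double. With levels matched on the control library instead, the difference at 20 to 40% went from 0.02 ± 1.19 points within 500 bp to 4.52 ± 0.54 points beyond 50000 bp. Within 500 bp the control-matched groups read -0.70 ± 5.44 points at 40 to 60% (257 cytosines), -0.89 ± 6.40 points at 60 to 80% (91 cytosines) and -3.33 ± 5.51 points above 80% (35 cytosines), each with a spread over autosomes larger than its size. Within 500 bp of unmethylated clusters the sign of the difference was therefore not settled at any level: with levels from the class libraries the groups with a lower mean in the double were those of 126 and of 44 cytosines.

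**Figure D2:**
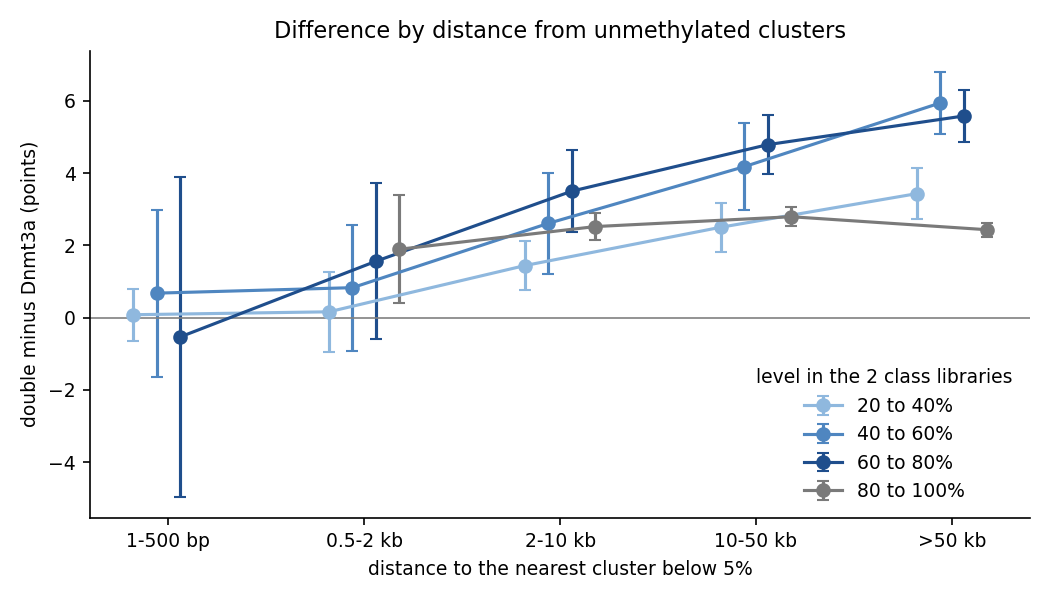
The double minus the Dnmt3a knockdown (percentage points, bars for the SD over autosomes) by distance to the nearest cluster below 5%, in 4 groups of level in the Dnmt3b library and the Tet1 and Tet2 library; the 44 cytosines above 80% within 500 bp are left out. In the groups from 20 to 80% the points rise from near 0 to between 3.43 and 5.94 points, while the group above 80% stays between 1.89 and 2.79 points.

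Along the chromosomes the gain was general. In 457 windows of 5 Mb with at least 100 intermediate or high cytosines, 455 were higher in the double and 2 lower, with a median of 3.06 points and 90% of the windows between 1.31 and 4.44 points. Of the windows, the lowest started at 60 Mb on chromosome 16 (-1.02 points, 115 cytosines) and the highest at 115 Mb on chromosome 10 (5.53 points, 581 cytosines). The spacing of the listed cytosines was examined as well. Intermediate cytosines without another within 100 bp differed by 3.26 ± 0.62 points, those with 3 to 5 by 4.18 ± 0.63 points and those with more than 10 by 2.62 ± 2.00 points. High cytosines differed by 1.68 ± 0.26 points when alone and by 3.61 ± 0.63 points with 6 to 10 neighbours.

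The base after the CpG, which the enzymes are known to read, also went with the size of the difference. Intermediate CpGs followed by C read 31.2% in the Dnmt3a knockdown and 36.4% in the double, a difference of 5.26 ± 0.67 points. Those followed by T differed by 4.80 ± 0.60 points, those followed by A by 3.95 ± 0.84 points, and those followed by G outside MspI sites by 3.82 ± 0.75 points. CpGs of MspI sites, which lie at fragment ends, differed by 3.35 ± 0.51 points. With MspI sites left out, the difference was 5.06 ± 0.51 points before a pyrimidine and 3.88 ± 0.67 points before a purine. The gap of 1.17 ± 0.69 points was above 0 on 17 of 19 autosomes. Among high CpGs the values were 3.69 ± 0.22 and 2.70 ± 0.33 points, a gap of 0.99 ± 0.27 points on 19 of 19 autosomes. By 10-point steps of level the values were 2.12 against 1.54 points at 20 to 30%, 4.85 against 3.45 points at 40 to 50%, 6.28 against 4.71 points at 70 to 80% and 2.83 against 2.10 points at 90 to 100%. Below 20% there was hardly a gap, with 0.925 against 0.903 points at 10 to 20% and 0.038 against 0.0093 points at 0 to 10%.

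Seen as levels, CpGs before a pyrimidine were the lower ones in the Dnmt3a knockdown and came closer to the others in the double. In the intermediate class they lay 2.92 ± 1.09 points below CpGs before a purine in the Dnmt3a knockdown and 1.74 ± 1.09 points below in the double. In the high class they lay 0.58 ± 0.40 points below in the Dnmt3a knockdown and 0.41 ± 0.33 points above in the double, above 0 on 2 and on 17 autosomes. In the intermediate class all 64 contexts of 5 bases with the CpG at bases 3 and 4 were higher in the double. The 8 with the largest differences all ended in a pyrimidine, led by ACCGC (30.4% and 37.7%, 598 cytosines) and CGCGT (29.9% and 36.6%, 222 cytosines). Of the 8 with the smallest, 1 did. The smallest was GCCGA, with 36.1% and 37.8% over 744 cytosines.

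**Figure D3:**
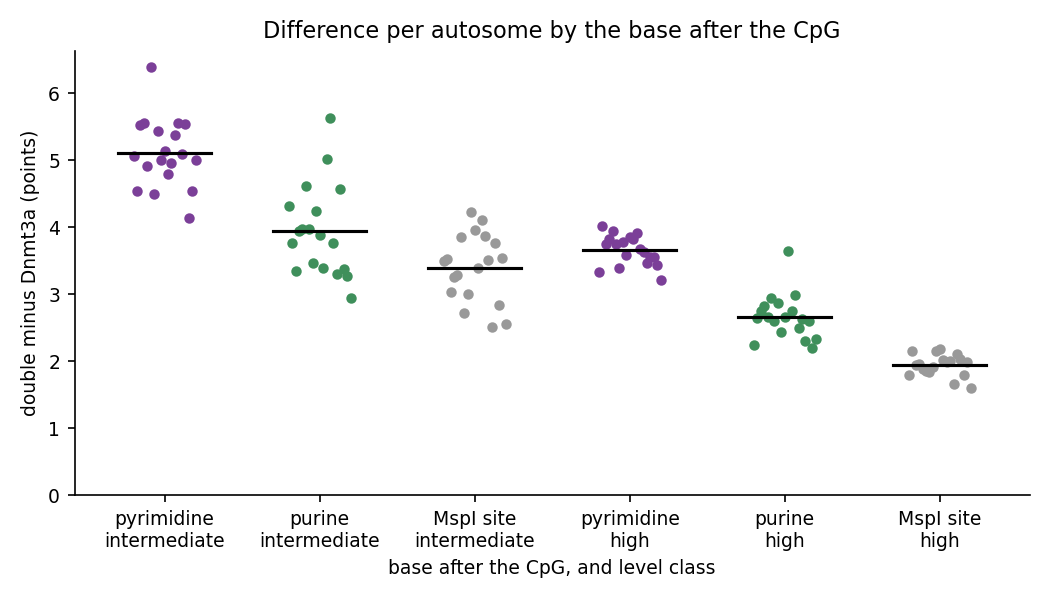
The double minus the Dnmt3a knockdown (percentage points) for each of the 19 autosomes (points; black lines are means over autosomes), by the base after the CpG in the intermediate and high classes, with MspI sites apart. All points are above 0, and the means of the pyrimidine groups are the highest in both classes.

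At single cytosines, 11122 members were at least 20 points higher in the double (2.29%) and 4339 at least 20 points lower (0.892%). Of intermediate cytosines 7.43% were higher and 2.29% lower by that much, and of high ones 3.69% and 1.44%. The difference between the strands of a CpG gives a rough measure of the error of such values, though it also holds any true strand difference. CpGs with both strands listed were read from both strands of the same library: in 1052 intermediate CpGs the SD of the plus minus the minus strand was 10.2 points in the Dnmt3a knockdown and 10.9 points in the double. Of all 1052, 57 were at least 20 points higher in the double on the plus strand, and 3 of these 57 were so on the minus strand as well. Whether 3 of 57 exceeds the share over all 1052 was not tested. The minus strand of the 57 differed by a mean of 4.06 points. Of 18 that were at least 20 points lower on the plus strand, 0 were so on the minus strand. Among 1596 high CpGs, 40 were at least 20 points higher on the plus strand and 0 of these on the minus strand, whose mean there was -2.52 points. Single-cytosine differences of this size were thus rarely repeated on the other strand. The general gain, in contrast, was seen on both strands, with 2.95 points on the plus and 2.34 points on the minus strand of the intermediate CpGs. In the high CpGs it was 1.95 and 1.66 points.

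Clusters of neighbouring cytosines gave the same one-sided picture. Members at most 100 bp apart formed 28622 clusters of at least 5 cytosines (median 8 over 128 bp), and a cluster was called when its mean differed by 20 points or more and 80% or more of its cytosines had that sign. The double was higher in 114 clusters (0.398%) and lower in 7 (0.0245%). Of the higher ones 71 were intermediate, 33 high and 10 without a class, and they lay on 19 autosomes. Their median levels were 36.8% in the Dnmt3a knockdown, 62.1% in the double, 66.7% in control, 70.9% in the Dnmt3b and 74.1% in the Tet1 and Tet2 library. The Dnmt3a knockdown was below each of these other 3 libraries that listed the cluster in 113 of the 114, and the double was so in 50. These clusters were picked for their difference, so their levels are a description. Over all intermediate clusters the mean difference was 4.11 points (SD over clusters 6.64) and 75.0% were higher, and over all high ones 2.82 points (SD 5.40) and 72.2%.

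The strands of a cluster show how far a large local difference repeats. Both strands had 3 or more cytosines in 15232 clusters. In 69 of them the plus strand was at least 20 points higher in the double; the minus strand was then higher in 57, by a median over the 69 of 6.87 points, and passed 20 points in 8. Over all intermediate clusters read this way the minus strand was higher in 71.5%, with a mean of 4.02 points. Over all high ones it was higher in 72.0%, with a mean of 3.30 points. Whether the 57 of 69 exceed these shares was not tested. In 7 the plus strand was at least 20 points lower; the minus strand was then lower in 3, differed by a median of 0.88 points, and passed 20 points in 0. With both strands required to pass 10 points, 124 clusters were higher and 7 lower. With clusters picked by their minus strand instead, 82 were at least 20 points higher there. The plus strand was then higher in 72, by a median over the 82 of 7.25 points. In 10 the minus strand was at least 20 points lower. The plus strand was then lower in 6, with a median over the 10 of -1.27 points. Falls of 20 points or more were thus found on both strands in 0 clusters, and gains in 8. Whether large falls repeat less often than large gains was not tested.

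Of the higher clusters, the largest lay on chromosome 5 (117555110 to 117555153) and read 36.1% in the Dnmt3a knockdown, 79.5% in the double and 85.2% in control; the other libraries did not list it. Another on chromosome 5 (118112363 to 118112403) read 36.5% and 76.9%, against 70.5% in control, 91.2% in Dnmt3b and 84.6% in Tet1 and Tet2. The next lay in the promoter window of Smarca5 on chromosome 8 (83263425 to 83263455), a gene for an ATP-driven nucleosome remodeller. It read 42.6% in the Dnmt3a knockdown, 82.3% in the double, 61.4% in control, 79.3% in Dnmt3b, 74.2% in Tet1 and Tet2 and 22.6% in Dnmt1. A cluster on chromosome 6 (134198684 to 134198788) was read on both strands, with gains of 36.6 points on the plus and 34.7 points on the minus strand. Its levels were 29.1% in the Dnmt3a knockdown and 64.9% in the double, the latter next to 65.4% in Dnmt3b and 66.2% in Tet1 and Tet2, with 57.4% in control and 8.90% in Dnmt1. The fifth, on chromosome 15 (56819611 to 56819634), read 61.6% and 96.7%, against 83.3% in control, 88.0% in Dnmt3b and 84.0% in Tet1 and Tet2. In these 5 the Dnmt3a library was below every other library but Dnmt1, and 4 of them were read on 1 strand within at most 44 bp, so that their cytosines can share reads.

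The 7 lower clusters (0.0245% of those tested) are those the rule called less methylated with the Dnmt3b shRNA added. Over cytosines listed in all 6 libraries 1 cluster was lower, and with at least 10 cytosines 0 were. The higher clusters also became fewer there, from 114 to 45 and to 6, and fewer clusters are tested in these sets. Of the 7, those on chromosomes 8, 10 and 11 and the first on chromosome 4 were read on 1 strand within at most 50 bp. Their cytosines can therefore share reads. The largest fall was on chromosome 4 (15233819 to 15233859), with 72.7% in the Dnmt3a knockdown, 45.5% in the double and 82.4% in Tet1 and Tet2. A cluster on chromosome 2 (164662442 to 164662567), 4021 bp from the placed promoter of Ctsa, a lysosomal protease gene, read 62.3% and 35.6%, against 78.4% in control, 84.1% in Tet1 and Tet2 and 74.3% in Dnmt3b. Its fall was on the plus strand (-42.5 points), while the minus strand differed by -3.20 points. The third, on chromosome 8 (119325293 to 119325342), is the repeat at 4930563M20Rik, with 83.8% and 58.3%, and there the Dnmt3a library was above control (59.8%) and Tet1 and Tet2 (69.1%). A further cluster on chromosome 4 (41609032 to 41609135) read 84.4% and 59.7%, against 92.1% in Dnmt3b, and fell by 42.4 points on the minus and by 7.0 points on the plus strand. The one on chromosome 10 (127094241 to 127094289) read 57.5% and 34.3%, against 57.6% in Dnmt3b and 60.6% in control. Outside the naming rule, the remaining clusters lay on chromosome 11 (115850263 to 115850290, 36.2% and 14.1%) and chromosome 16 (64873517 to 64873604, 38.6% and 18.2%). The last was lower at all 8 of its cytosines and on both strands, by -13.4 points on the plus and -31.8 points on the minus strand, with 46.8% in Dnmt3b and 46.7% in control. In all 7 the double was the lowest of the libraries other than Dnmt1 that listed the cluster. These clusters were picked for a double below the Dnmt3a knockdown, so this order is a description. Besides the compared libraries, only Tet1 and Tet2 listed the first, and only that library and control listed the third. The Dnmt3b knockdown alone, where it listed the cluster, was not below the Dnmt3a knockdown in any of the 7.

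**Figure D4:**
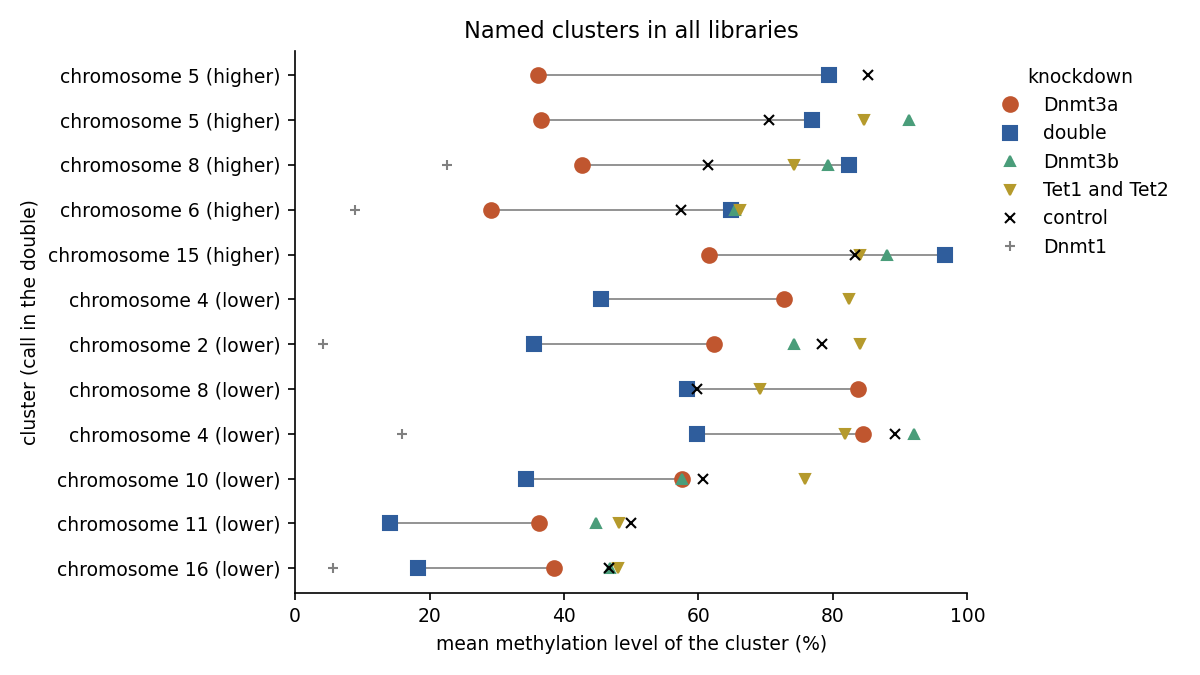
Mean methylation level (%) of the 5 clusters with the largest gain and the 7 lower clusters in every library that listed them; a line joins the Dnmt3a (circle) and the double knockdown (square). In the 5 gains the circle is left of the other libraries except Dnmt1, and in the 7 falls the square is the leftmost apart from Dnmt1. The clusters were picked for the difference between circle and square, so this order is a description.

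Promoters could be named for 5092 genes on 18 autosomes, each window holding at least 5 members; promoters of chromosome 18 were not analysed here. Most were unmethylated: 4882 were in the low class, with means of 0.200% in the Dnmt3a knockdown and 0.217% in the double. The 87 intermediate promoters read 24.8% and 28.6%, a difference of 3.75 points (SD over promoters 7.05), and 58 of them were higher in the double. The 30 high promoters read 72.8% and 78.8%, a difference of 6.0 points (SD 6.28), and 26 were higher. In all, 3 promoters were at least 20 points higher (0.0589%) and 1 at least 20 points lower (0.0196%). The promoters of the methylation enzymes themselves carried next to nothing: all 14 measured genes of that list of 27 were at or below 0.429% in both libraries, with Dnmt3a, Dnmt1 and Tet1 at 0% in both.

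The 3 promoters past 20 points were Smarca5, described above, P2rx1 and Gm36794. P2rx1, which encodes an ATP-gated ion channel, was read at 5 cytosines (chromosome 11, 72812463 to 72812581). It stood at 33.7% in the Dnmt3a knockdown, 58.2% in the double, 53.7% in control, 65.3% in Dnmt3b, 65.5% in Tet1 and Tet2 and 4.08% in Dnmt1, and all 5 cytosines were higher in the double. Gm36794 (chromosome 5, 112373460 to 112373509) read 58.4% and 81.5%, against 86.9% in control. Its 5 cytosines were higher by 6.8 to 33.8 points, and all lie on the minus strand within 50 bp, so that they can share reads. The promoter past 20 points in the other direction was 4930563M20Rik, in the repeat shown above, with all 8 cytosines lower. All 8 lie on the plus strand within 50 bp, so that they can share reads.

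Germline genes made up nearly all methylated promoters on the lists examined. Of 42 genes on the germline list 13 were measured, and 0 passed 20 points in either direction. Their median difference was 2.87 points, beside 0 points over all promoters measured. Of the 11 with a mean of at least 10% over both libraries, 10 were higher in the double and 1 lower. Among all 105 promoters at that level 79 were higher (75.2%), and among the 94 that are not on the germline list 69 were (73.4%). The medians were 3.48 points for the germline promoters and 3.45 points for the other 94, and the difference between the shares was not tested.

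Of the germline promoters, Asz1 gained the most. It was read at 11 cytosines on both strands (chromosome 6, 18059029 to 18059177), shown in capitals or within the 50 bases after the start. It stood at 50.3% in the Dnmt3a knockdown, 64.0% in the double, 68.3% in control, 77.5% in Dnmt3b, 73.9% in Tet1 and Tet2 and 12.3% in Dnmt1. All 11 cytosines were higher in the double, by 2.1 to 23.3 points. Rpl10l, a testis copy of a ribosomal protein gene, went from 4.70% to 15.8% at 5 cytosines, all higher, with 13.5% in control and 16.7% in Dnmt3b. Tex101, a testis glycoprotein gene, went from 75.8% to 86.7%, with 10 of 11 cytosines higher and 85.8% in control and 87.3% in Dnmt3b. In these 3 genes, and in the other germline promoters named below except Hormad1, the double stood closer to control than the Dnmt3a knockdown did.

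Other germline promoters moved little. Dazl, for an RNA-binding protein of germ cells, read 66.8% and 70.9%, with 6 of 8 cytosines higher, and 82.6% in control. Slc25a31, a testis carrier of ADP and ATP, read 34.0% and 37.5% over 18 cytosines, against 44.2% in control and 51.2% in Dnmt3b. Tuba3b, a testis tubulin, read 70.6% and 75.0%, and Fkbp6, needed in meiosis, 76.5% and 79.4%. Mael, of the piRNA pathway, read 14.0% and 15.8%, and the transcription factor gene Dmrtb1 15.5% and 16.2%. Ddx4, the germ cell RNA helicase, read 18.2% and 18.5%, against 21.1% in control and 25.7% in Dnmt3b. Hormad1, of the meiotic chromosome axis, was the 1 lower promoter, with 23.0% and 21.4% against 36.6% in control and 38.8% in Dnmt3b. At each of the promoters in this paragraph, and at Asz1, both knockdowns stayed below control. Control read 78.1% at Tuba3b and 79.8% at Fkbp6, the latter close to the double.

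Topaz1, which is on none of the lists, gained more than any listed germline gene. At its 9 cytosines (chromosome 9, 122656228 to 122656357) it read 32.5% in the Dnmt3a knockdown, 49.3% in the double, 53.1% in control, 61.3% in Dnmt3b, 56.5% in Tet1 and Tet2 and 15.8% in Dnmt1. All 9 were higher, by 7.1 to 28.4 points. Its printed sequence holds CACGTG, the letters bound by E-box factors, and so does that of 4930563M20Rik, which had the largest fall. These letters occur on either strand in 11.6% of the 5092 measured promoters and in 5 of the 11 methylated germline promoters. The letters GGCGGGA, close to the E2F motif, occur in 27.9% and again in 5 of 11, and are in the Zfp629 window. These counts describe the windows and show no binding.

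At Zfp629 (chromosome 7, 134757914 to 134758182) the levels were 40.4% in the Dnmt3a knockdown, 27.0% in the double, 48.9% in control, 61.9% in Dnmt3b and 56.4% in Tet1 and Tet2. The fall was uneven. Of its 9 cytosines 6 were lower and 3 higher, and 1 of them, at position 134758150, went from 66.7% to 0%. The one at position 134758156 went from 41.7% to 5.6%. Both stand alone, outside the runs of adjoining CpGs. Crygn, a lens crystallin gene, read 25.6% and 13.8% with 7 of 8 cytosines lower, and was named after its values were seen.

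The remaining lists had almost no methylated promoter. Of the imprinted list 4 of 42 genes were measured, and Mcts2, an imprinted retrogene, read 22.5% in the Dnmt3a knockdown and 26.1% in the double at 14 cytosines, against 23.9% in control. The 13 measured developmental regulators had a median difference of 0 points, and so did the 11 housekeeping genes. The 4 pluripotency genes measured were at most at 0.214% in either library, Sox2 among them with 0.150% and 0.083%. The 2 primed state genes had median levels of 1.47% in the Dnmt3a knockdown and 1.27% in the double, and the 1 tissue-restricted gene read 0.887% and 0.300%. Of the protocadherin and the 2-cell lists 0 genes were measured.

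**Figure D5:**
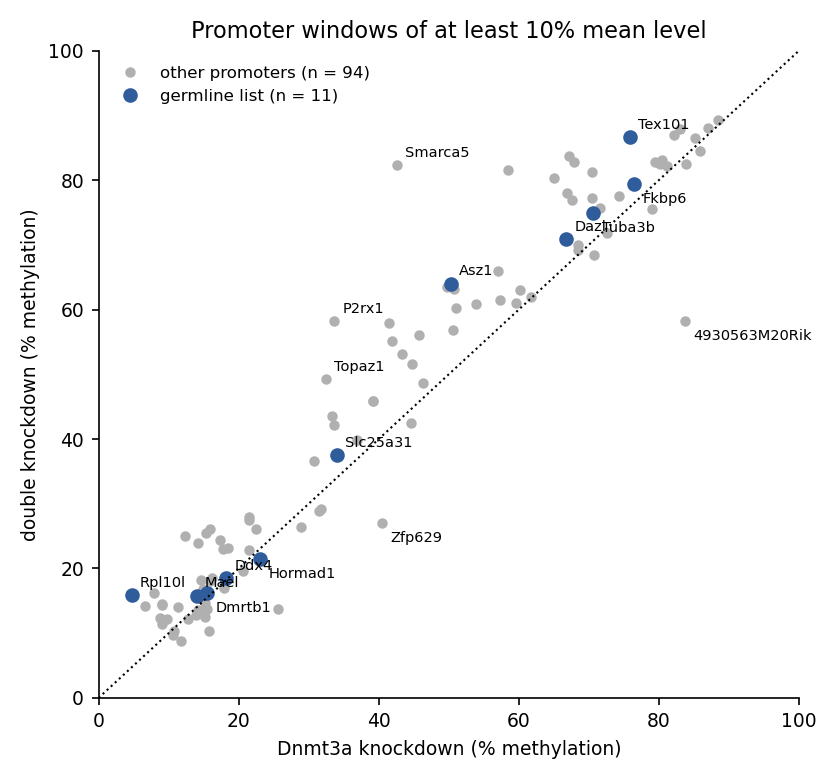
Mean methylation level (%) of the 105 promoter windows with a mean of at least 10%, in the Dnmt3a knockdown (x) and the double knockdown (y); blue points are the 11 germline list promoters, grey points the other 94, and the dotted line marks equal levels. In all, 79 of the 105 lie above the line, Smarca5 farthest, and 4930563M20Rik lies farthest below.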

How the data were processed

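Genomic DNA of E14 cells was profiled by RRBS after MspI digestion and bisulfite conversion, per the labels' protocols. CASAVA 1.8, Bismark 0.10.1 and build mm9 are named, without their roles, per the submitters' processing notes. The deposited files give a methylation fraction from 0 to 1 per cytosine, rounded by the authors to 3 decimals, without coverage. A coverage minimum is not given in the sources used here, so the planned minimum could not be applied.

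Fractions were turned into percent. Tools were Python 3.11.15 with the packages pandas 2.3.3, NumPy 2.4.6 and, for plots, matplotlib 3.10.9. The planned Fisher's exact test needs counts and was not run. Promoter sequences were placed where at least 5 listed cytosines matched in position, strand and context, at least 90% of those listed in the window matched, and no other place matched more than 50% as many. Of 7640 windows so placed, 99.9% fell on the chromosome RefSeq gives, and 100% of neighbouring pairs kept their order there. Where a gene had several windows, the one with the most cytosines was used. The cluster rule was tested on simulated data.

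The members, lists and tests were chosen with earlier results of these data known. Named were up to 5 clusters with the largest gain and 5 with the largest fall, promoters past 20 points, and list promoters with a mean of at least 10%. Alternatives were other thresholds, classes, spacings, cytosine sets and cluster sizes.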

Additional observations from a re-analysis of the deposited data

How the results depend on the processing

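Results with no replicates were compared with the SD over autosomes, and counts with a factor of 1.5. None of the values with an alternative below changed sign, but differences within 500 bp of a low cluster did: at 40 to 60% it was -0.70 points with levels from control, and with levels from the compared libraries it was -0.54 points at 20 to 40%, 1.21 points at 60 to 80% and 0.52 points above 80%. Over the 369208 cytosines listed in all 6 libraries the mean difference was 1.08 points. Of these, 4510 were higher and 1224 lower, beside 11122 and 4339 of the 486320 members. In that set 45 clusters were higher and 1 lower. At low cytosines the difference was 0.094 points with classes set on control, 0.173 points with classes set on the compared libraries and 0.113 points with limits of 30 and 70%; at high cytosines these were 2.29, 1.87 and 2.87 points. At 10 points 41522 cytosines were higher and 17051 lower, with 1000 clusters higher and 96 lower and 21 promoters higher and 3 lower. At 30 points 2949 cytosines were higher and 1133 lower, and 13 clusters higher and 0 lower. With at least 3 cytosines 492 clusters were higher and 73 lower. Of 6102 promoters measured that way, against 5092 with at least 5 cytosines, 6 were higher and 1 lower. With at least 10 cytosines 6 clusters were higher and 0 lower, and 0 promoters passed in either direction. The numbers of clusters tested in these settings are not given here. The distance alternatives and 1 of those for the base after the CpG were chosen after the data were seen; none moved its value by more than the SD over autosomes. The gap between far and near intermediate cytosines ranged from 3.83 points (classes set on the compared libraries) to 4.73 points (on control). Fewer cytosines or clusters are tested in the stricter sets; the cause of the other shifts was not tested. No library could be left out. No paired analysis was possible because each group has 1 library. Unknown depth limits every single-cytosine value.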

Other observations

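On chromosome X 10129 cytosines read 31.1% in the Dnmt3a knockdown and 32.1% in the double, and the intermediate ones differed by 4.34 points and the high ones by 1.15 points. On chromosome Y 74 cytosines read 77.4% and 79.4%, and the intermediate ones differed by -0.28 points and the high ones by 1.69 points. Mitochondrial DNA, which is largely unmethylated, read 0.021% in the Dnmt3a knockdown and 0.080% in the double over 126 cytosines. That difference of 0.060 points is close to the 0.061 points at low autosomal cytosines, and its part in them was not tested.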
